A study of Homo sapiens with 10 samples.

Results

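The EV line of HCT116 cells, in which CDK9 was knocked down, was set beside DMSO-treated HCT116 cells, using 4 of the 10 libraries of the series. The members are the 2 libraries labelled EV and the 2 labelled DMSO. They were chosen by their labels alone, with no use of a measured value. HCT116 is an established human colorectal carcinoma line, grown here in RPMI 1640 with serum. The DMSO cells carry the genotype label Control and served as vehicle controls for EPZ-5676, a DOT1L inhibitor given at 10 µM for 72 h to a further 2 libraries (EPZ). The EV cells carry the genotype label CDK9 knockdown, made with an shRNA (shCDK9), and had no drug. The labels do not expand EV, name the shRNA sequence or say whether the line is 1 clone or a pool. Another 4 libraries hold the same knockdown with CDK9 put back, as wild type (WT) or as the K56A mutant, and they are used here only for comparison. The EV line differs from the DMSO cells in knockdown, in line, in culture and vehicle, and in the table in which its values stand, and these cannot be told apart. Values are therefore described, with no test and no p-value between the groups.

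CDK9 is the kinase of the positive transcription elongation factor P-TEFb, in which it pairs with cyclin T1 or T2. P-TEFb phosphorylates paused RNA polymerase II and its pausing factors, and the polymerase then enters productive elongation. A large part of P-TEFb is held inactive by the 7SK RNA with HEXIM, LARP7 and MEPCE, while the super elongation complex brings the active form to genes.

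Levels are given in FPKM (fragments counted per unit of transcript length and of library size), summed over the transcripts of a gene. EV values were multiplied by 1.088 so that the median log2 difference between EV and DMSO over 13483 genes was 0. Differences are EV minus DMSO in mean log2(FPKM + 0.5), which understates the change of low genes. A gene was called higher or lower where the difference was at least 1, that is 2-fold, and both EV libraries lay beyond both DMSO libraries. The pairs of replicates had r = 0.983 (DMSO) and 0.993 (EV) in log2 levels across genes, against 0.905 between the group means, as a description over genes that share libraries. A difference of at least 2-fold between replicates was seen for 1.66% of genes in DMSO and 0.49% in EV. The deposited values carry no counts, so the depth is unknown and no counting interval is given.

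Of the 13483 genes, 1666 (12.4%) were called higher in EV and 1066 (7.91%) lower, together 20.3%. The balance of higher and lower calls depends on the scaling. Without rescaling, 1336 genes were higher and 1446 lower (48.0% of calls higher, against 61.0%), and the median over all genes was -0.11. With libraries set to the same sum outside the mitochondrial genome, 1997 were higher and 795 lower (71.5%), with a median of 0.10. The groups did not overlap for 82.2% of genes, so separation of the groups alone is close to the rule in this comparison. The quartiles of the differences were -0.50 and 0.58, and the median absolute difference was 0.54, against 0.20 between the DMSO replicates and 0.10 between the EV replicates. At least 4-fold differences were found for 197 genes higher (1.46%) and 72 lower (0.534%).

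**Figure D1:**
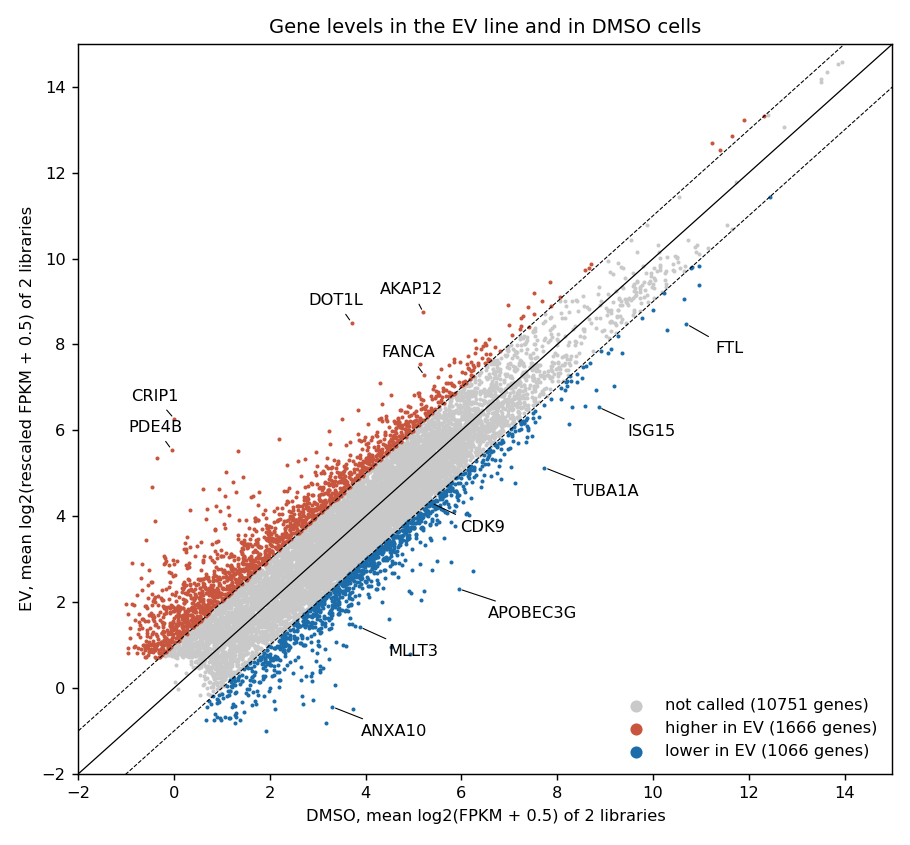
Mean log2(FPKM + 0.5) of each gene in DMSO (horizontal) and EV (vertical, rescaled), 2 libraries per group; the solid line marks equal levels and the dashed lines a 2-fold difference. Red points are the 1666 genes called higher in EV and blue points the 1066 called lower; DOT1L and AKAP12 lie far above the line, and APOBEC3G and TUBA1A far below it.

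The targeted gene was examined first. CDK9 (ENSG00000136807, chr9:127786034-127790792, GRCh38) had 43.9 and 37.6 FPKM in the DMSO libraries, against 17.8 and 21.2 in the EV libraries. Both EV libraries were below both DMSO libraries, with means of 40.7 ± 4.47 (SD, n = 2) and 19.5 ± 2.38 (SD, n = 2), a fall of 52.2% in the mean and a difference of -1.05. The 2-fold limit was just met, and it was missed without DMSO replicate 1 (-0.92) or EV replicate 1 (-0.93). Its coding transcript, CDK9-201, was 24.3 and 23.7 in DMSO and 12.6 and 11.9 in EV, which is 51.1% of the DMSO mean. A non-coding transcript of the gene, CDK9-204, was 10.98 and 4.56 in DMSO and 0 and 0.686 in EV. When only transcripts of the protein-coding class were summed, an alternative chosen after seeing the data that has a scaling factor of its own (1.240), the difference of CDK9 was -0.76 and was not called. CDK9 was 41.9 and 38.5 in EPZ, 3331 and 3239 in WT and 2842 and 2721 in K56A, so the remaining CDK9 RNA of EV lies far under that of the lines with CDK9 put back.

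DOT1L, the histone H3 lysine 79 methyltransferase, differed far more than the targeted gene. DOT1L (ENSG00000104885, chr19:2163933-2232578) had 12.6 and 12.5 FPKM in the DMSO libraries and 353 and 373 in the EV libraries, a difference of 4.80 or 28.9-fold. It was also 629 and 619 in WT and 798 and 765 in K56A, against 10.7 and 10.4 in EPZ. The transcript DOT1L-201 held most of it, at 11.4 and 10.4 in DMSO and 276 and 282 in EV. The labels name no DOT1L construct in these lines, and RNA of the gene itself and of an introduced copy cannot be told apart in these values. All comparisons of EV with DMSO are therefore also comparisons of cells with high and low DOT1L RNA, whose part in the other differences cannot be told apart. Among the other members of the DOT1L list, MLLT10 (-0.05) and BAG6 (-0.02) had groups that overlapped. MLLT6 stood at 0.71, and KAT2A, an acetyltransferase, at 1.00, a call lost in 10 of 15 alternatives, among them those without DMSO replicate 2 (0.94) or EV replicate 2 (0.97).

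Of the 18 members of the P-TEFb list, 0 were called higher and 4 lower (22.2%, against 7.91% of all genes), with a median of -0.23 against 0 over all genes (-0.34 without rescaling and -0.12 with equal sums outside the mitochondrial genome). The 4 include CDK9, the gene targeted by the shRNA, so this share is not a result about its partners alone. The others were HEXIM1, ELL2 and MLLT3. HEXIM1, the protein that inhibits CDK9 within the 7SK complex, was 58.9 and 51.9 FPKM in DMSO and 25.6 and 24.2 in EV, a difference of -1.14. ELL2, an elongation factor of the super elongation complex, was 9.51 and 10.1 in DMSO and 4.99 and 3.79 in EV (-1.08, and -0.90 without EV replicate 2, which is not called). MLLT3, the AF9 protein of the super elongation complex that also binds DOT1L, was 14.2 ± 0.253 FPKM in DMSO (SD, n = 2) and 2.25 and 2.10 in EV (-2.45). In each of these genes both EV libraries were well below both DMSO libraries. HEXIM1 and MLLT3 were also called lower between WT and EPZ (-1.15 and -2.25), as was ELL2 (-1.10). From protein-coding transcripts alone 1 of 17 members was called lower, MLLT3 at -2.26, while HEXIM1 stood at -0.95 and ELL2 at -0.79.

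The cyclin partners of CDK9 were not lower. CCNT1 (cyclin T1) had 16.1 and 16.2 FPKM in DMSO and 23.1 and 19.1 in EV (0.37), and CCNT2 (cyclin T2) at 11.4 and 11.4 against 18.1 and 18.2 (0.65). For both cyclins the 2 EV libraries were above the 2 DMSO libraries by less than 2-fold. RN7SK, the 7SK RNA, was 3.78 and 3.43 in DMSO and 6.23 and 5.16 in EV (0.59), in libraries made with an mRNA kit although 7SK has no poly(A) tail. The 7SK proteins LARP7 (0.10) and MEPCE (-0.15) differed little, and for LARP7 the groups overlapped. HEXIM2, the second HEXIM, stood at -0.67. Of the scaffold proteins of the super elongation complex, AFF1 stood at -0.79 and AFF4 at -0.00. Its other members EAF1 (-0.52), EAF2 (-0.79), ELL (-0.31), ELL3 (0.04) and MLLT1 (0.28) were not called.

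**Figure D2:**
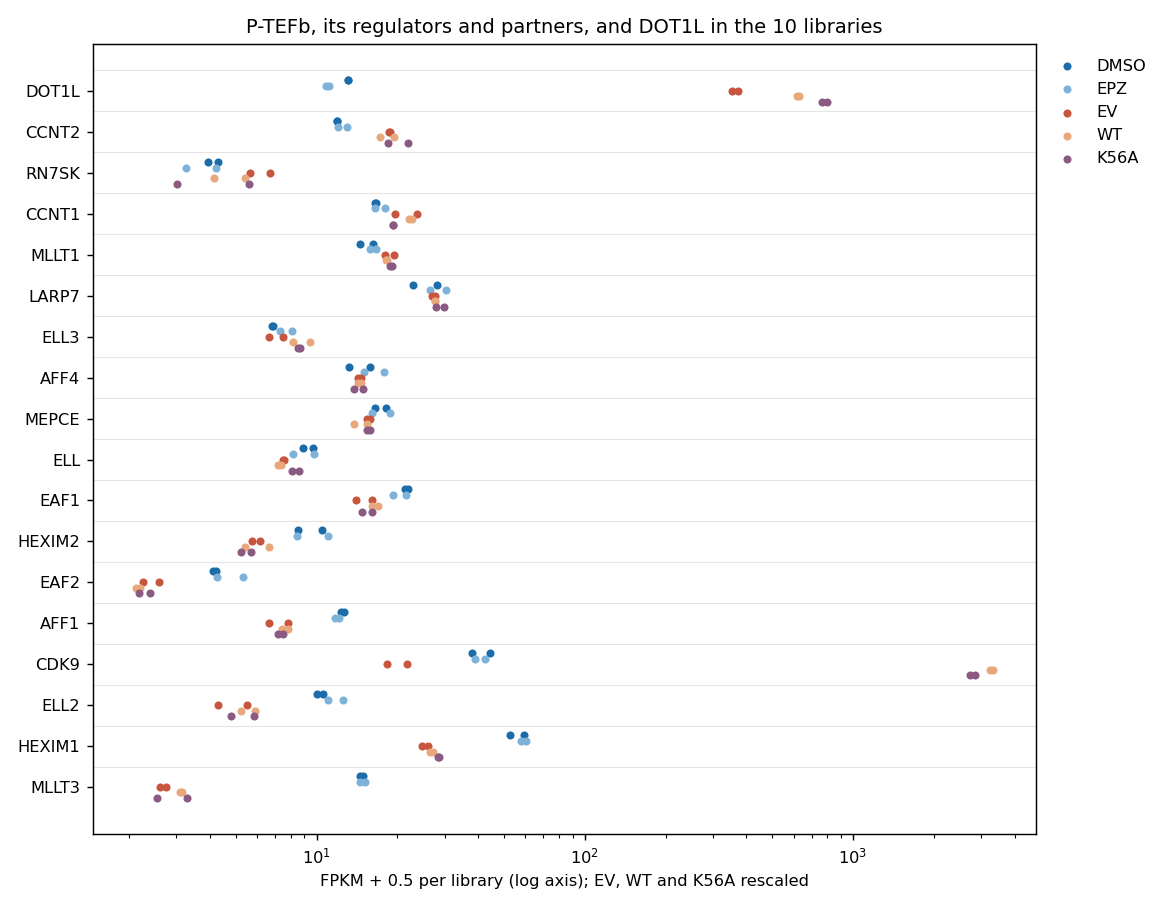
FPKM + 0.5 of 17 of the 18 P-TEFb list members and DOT1L in each of the 10 libraries (log axis), coloured by group, with 2 points per group; EV, WT and K56A are rescaled to DMSO. CDK9 spans 17.8 in EV to 3331 in WT, DOT1L is high in EV, WT and K56A, and MLLT3, HEXIM1 and ELL2 are low in these same lines.

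Pausing and elongation factors outside P-TEFb (NELF, DSIF, the PAF complex and others) had a median of -0.06 over 19 genes. Of these, 0 were called higher and 1 lower (5.26%, against 7.91% of all genes). The gene was PAF1, a core subunit of the PAF elongation complex, at 46.6 and 46.9 FPKM in DMSO and 21.8 and 22.2 in EV (-1.07). It was not called from protein-coding transcripts (-0.99) or with equal sums outside the mitochondrial genome (-0.96). The sign of this median is not stable: it was 0.04 with libraries set to the same sum outside the mitochondrial genome and 0.03 without DMSO replicate 2. Among 25 other transcriptional kinases, cyclins and RNA polymerase II subunits the median was -0.44, and 18 members were below 0. Of the 25, 2 were called, both higher (8%, against 12.4% of all genes). CCNL2, a cyclin L that localises with splicing factors, was 75.7 and 79.7 in DMSO and 275 and 275 in EV (1.82). CCNL1, its paralog, was 69.9 and 69.8 in DMSO and 175 and 175 in EV (1.32). The 2 genes differ in which transcripts carry this. For CCNL2 the protein-coding transcripts were higher as well (2.02), with CCNL2-202 at 24.3 and 22.8 in DMSO and 87.8 and 83.5 in EV. For CCNL1 the protein-coding transcripts were lower (-2.05), with CCNL1-202 at 2.94 and 4.07 in DMSO and 0.265 and 0.754 in EV, and the sum was carried by retained-intron and nonsense-mediated decay classes.

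The retained-intron class was higher in EV as a whole. Outside the mitochondrial genome, transcripts annotated as retained introns made up 7.59% and 7.44% of FPKM in DMSO and 13.5% and 13.3% in EV. Over transcripts listed in both tables, a check chosen after seeing the data, the shares were 7.58% and 7.43% in DMSO and 13.1% and 12.9% in EV. The EPZ libraries stood at 7.77% and 7.94%, and all WT and K56A libraries between 13.4% and 13.8%. Protein-coding transcripts made up 82.7% and 82.8% in DMSO and 73.7% and 73.8% in EV. Among genes, lncRNA genes had a median of 0.66 over 972 genes, against a median of -0.06 over 11962 protein-coding genes. Of the lncRNA genes 332 (34.2%, against 12.4% of all genes) were called higher and 36 (3.70%, against 7.91%) lower. Of the protein-coding genes 9.91% were called higher and 8.36% lower. The gene sums hold all of these classes. Of the 1666 genes called higher, 1082 had a value from protein-coding transcripts alone, and 928 of these were called higher by it and 1 lower. Of the 1066 called lower, 969 had such a value, and 600 were called lower by it and 0 higher. From protein-coding transcripts 10.9% of 11619 genes were called higher and 6.24% lower. The knockdown, the line and the experiment cannot be told apart here either.

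**Figure D3:**
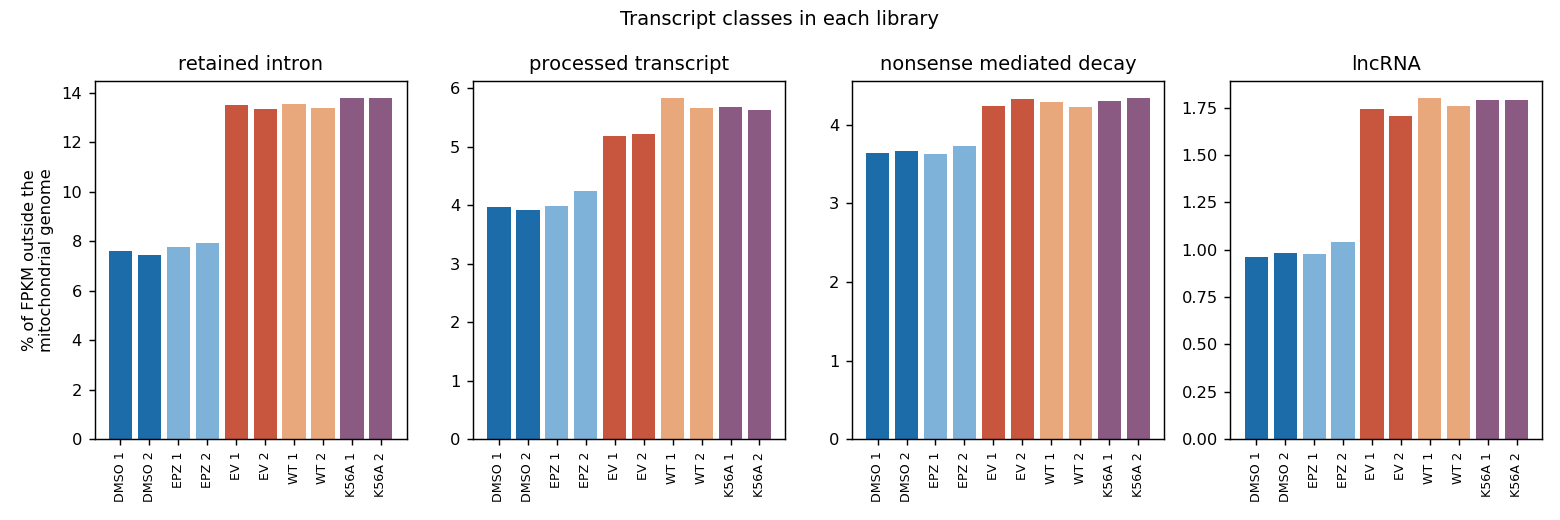
Share of FPKM outside the mitochondrial genome (percent, axes from 0) held by 4 transcript classes in each of the 10 libraries, 1 bar per library. The retained-intron share is between 7.44% and 7.94% in the DMSO and EPZ libraries and between 13.3% and 13.8% in the EV, WT and K56A libraries.

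Host genes of small nucleolar RNAs, whose spliced transcripts are often short-lived targets of nonsense-mediated decay, were above 0 in 15 of 15 measured cases. Over all genes tested, 50% lay above 0, since the scale sets their median to 0. The median of the host genes was 0.74, and 4 were called higher (26.7%, against 12.4% of all genes) and 0 lower. Most of them are lncRNA genes, a class with a median of 0.66 and 34.2% called higher. The list thus does not stand apart from its class. SNHG12 was 44.1 and 45.5 FPKM in DMSO and 148 and 155 in EV (1.75), with the retained-intron transcript SNHG12-202 at 20.6 and 22.6 against 84.3 and 89.9. SNHG1 (1.49), SNHG15 (1.47) and SNHG3 (1.34) followed. The median was 0.46 without DMSO replicate 1. Only 1 of these host genes has a value from protein-coding transcripts.

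The genes with the largest differences were of many kinds. The genes highest in EV, under a rule that asks for a call, at least 5 FPKM in the higher group and 80% of FPKM in transcripts listed in both tables, began with CRIP1, a small LIM-domain protein. In DMSO CRIP1 had 1.51 FPKM in 1 library and is listed at 0 in the other, against 75.0 and 78.4 in EV (6.27). PDE4B, a phosphodiesterase that breaks down cyclic AMP, was 0.398 and 0.541 in DMSO and 46.3 and 46.0 in EV (5.59). AKAP12, a scaffold that anchors the cyclic AMP-dependent kinase, was high in absolute terms, at 34.3 and 38.5 in DMSO and 428 and 430 in EV (3.54). In all 3 genes the EV libraries agree closely with each other and lie far above DMSO. The serine protease PRSS8 (4.18), the adhesion molecule MCAM (4.03), the lysosomal protease CTSH (3.94) and the secretory granule protein SCG2 (3.81) came next after DOT1L. The remaining genes were SUSD2 (3.69), LMAN1, a cargo receptor between the endoplasmic reticulum and the Golgi (3.63), the zinc finger gene ZBED2 (3.55), SNHG25 (3.49), METTL7B (3.48), the kinase BRSK1 (3.29) and the epithelial transcription factor GRHL2 (3.27).

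Among the genes lowest in EV, APOBEC3G, a cytidine deaminase that restricts retroviruses, was 61.5 and 60.7 FPKM in DMSO and 4.38 and 4.52 in EV (-3.64). ANXA10, an annexin, was 7.997 and 10.9 in DMSO and listed at 0 and 0.587 in EV (-3.74). TUBA1A, an alpha tubulin, was 220 and 204 in DMSO and 34.6 and 34.7 in EV (-2.60). In each of these 3 genes both EV values are far below both DMSO values. TNFRSF6B, a soluble decoy receptor for death ligands, was 90.5 and 62.3 in DMSO and 6.94 and 5.30 in EV (-3.52), with 35.5 and 29.7 in EPZ. PINK1, the kinase that marks damaged mitochondria, was 43.8 and 38.9 in DMSO and 5.33 and 7.27 in EV (-2.64). Others were CLIC3 (-3.57), the homeobox gene MSX2 (-2.84), the nucleosome-binding gene HMGN5 (-2.75), ARL14EPL (-2.68), the caveolar protein CAVIN3 (-2.65), the GTPase RHOU (-2.61) and CRYM, which binds thyroid hormone (-2.54). The pseudogene RPL7P9 (-2.97) and the histone gene H4C12 (-2.71) share sequence with near-identical copies, and their values are uncertain. AC005538.2 (-2.57) was the only one of the 30 genes not called between WT and EPZ.

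**Figure D4:**
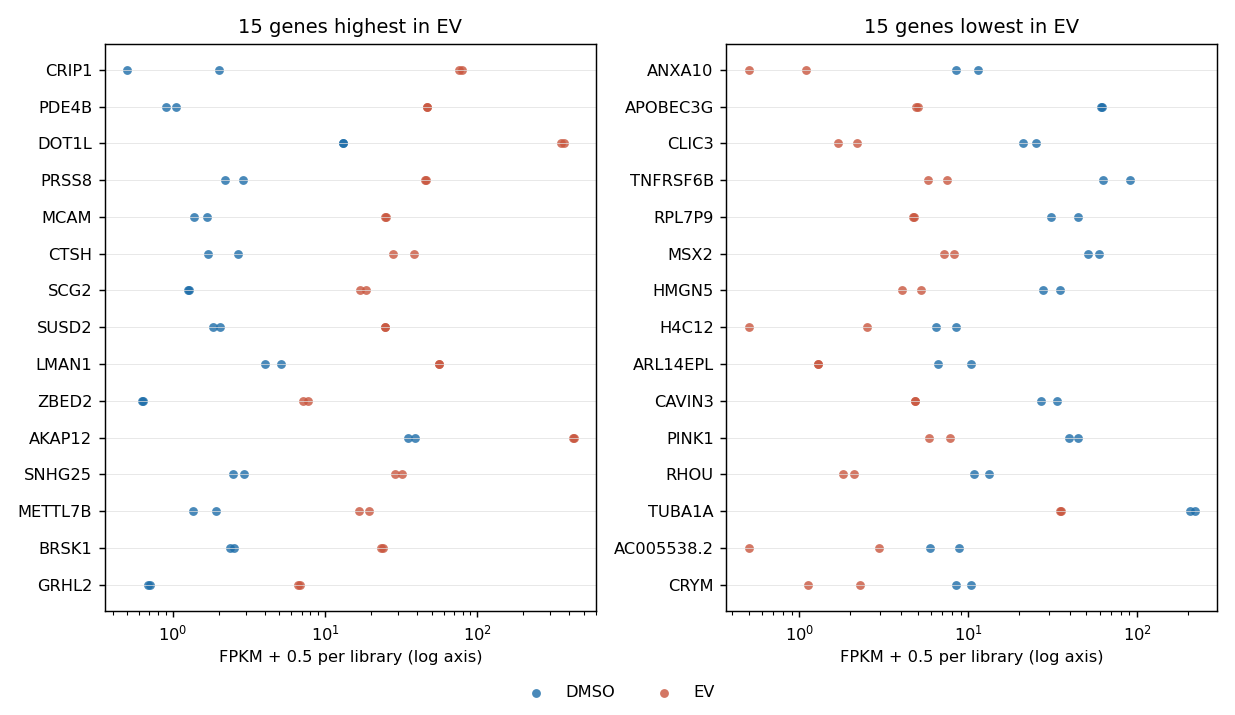
FPKM + 0.5 per library (log axis) of the 15 genes highest and the 15 genes lowest in EV, with 2 points for DMSO and 2 for EV (rescaled) in each row. In every row the 2 groups are apart, from CRIP1 at 75.0 and 78.4 FPKM in EV to ANXA10 at 0 and 0.587.

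Interferon-stimulated genes, which are switched on by interferon signalling, had the lowest median of the lists described. Over the 32 measured members, of 42 listed, the median was -1.04, with 0 called higher and 17 lower (53.1%, against 7.91% of all genes). The summed level of the list was 1382 and 1474 FPKM in DMSO and 545 and 573 in EV. It was 1696 and 1639 in EPZ, 554 and 567 in WT and 699 and 673 in K56A. ISG15, the ubiquitin-like modifier, was 479 and 451 in DMSO and 89.7 and 95.6 in EV (-2.32). IFIT1, which binds foreign RNA, was 20.3 and 25.6 in DMSO and 5.75 and 6.13 in EV (-1.85). IFI35 (-2.22), the mitochondrial nucleotide kinase CMPK2 (-2.03) and the transcription factor IRF7 (-1.93) were also called. No EV library reached a DMSO library for these 5 genes. Not every member was lower: IFIT2 was 2.63 and 2.49 in DMSO and 3.92 and 4.01 in EV (0.55), and from protein-coding transcripts alone it was called higher, beside 15 lower of 31.

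Promoters of these genes are shown because the interferon-stimulated response element is the sequence the list is known for. Its core, GAAA followed by any 2 bases and a second GAAA, was searched on both strands from 250 bases before to 50 after each start in the RefSeq promoter table (GRCh38.p14), where motifs may overlap. The motif was chosen after seeing the values of the list. Below are the 120 bases before the start, 5′ to 3′ on the strand of the gene. They are given for a selection of the genes called lower with a match there, which need not be every such gene. Capitals mark the matches, which show TTTC in place of GAAA where they lie on the other strand.
ISG15, chr1:1013377-1013496, plus strand: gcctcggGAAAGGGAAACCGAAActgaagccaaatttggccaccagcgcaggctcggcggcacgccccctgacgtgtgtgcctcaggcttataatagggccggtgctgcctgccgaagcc
IFIT1, chr10:89392503-89392622, plus strand: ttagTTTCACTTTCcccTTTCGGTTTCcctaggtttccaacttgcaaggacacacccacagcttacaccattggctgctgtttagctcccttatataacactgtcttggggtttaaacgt
IFI27, chr14:94110616-94110735, plus strand: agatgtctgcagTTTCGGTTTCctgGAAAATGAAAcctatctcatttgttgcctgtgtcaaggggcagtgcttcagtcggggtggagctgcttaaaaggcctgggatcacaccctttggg
IFIH1, chr2:162318685-162318804, minus strand: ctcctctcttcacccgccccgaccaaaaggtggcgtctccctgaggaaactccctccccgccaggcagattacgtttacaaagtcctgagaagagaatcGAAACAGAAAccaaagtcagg
ISG20, chr15:88638896-88639015, plus strand: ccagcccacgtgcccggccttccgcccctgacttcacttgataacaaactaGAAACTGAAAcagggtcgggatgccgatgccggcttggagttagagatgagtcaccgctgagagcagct

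ISG15, IFIT1 and IFI27 each hold 2 matches and IFIH1 and ISG20 hold 1. IFI27 differed by -1.55, the RNA sensor IFIH1 by -1.47 and the exonuclease ISG20 by -1.39. Of the 26 interferon-stimulated genes compared that have a promoter in the table, 17 (65.38%) held the motif, against 268 of 9946 compared genes (2.695%) and 1255 of all 35116 promoters (3.574%). Within the list the motif did not set the called genes apart, at 8 of 13 called lower and 9 of 13 not called. A match is a description of letters in this window.

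Lists of DNA repair and replication genes had medians above 0. Of 40 genes of homologous recombination and the Fanconi anaemia pathway, 30 were above 0, 10 were called higher (25%, against 12.4% of all genes) and 0 lower, with a median of 0.76. FANCA, of the core complex that ubiquitinates FANCD2, was 38.9 and 35.1 FPKM in DMSO and 155 and 155 in EV (2.05). FANCL, the ubiquitin ligase of that complex, was 6.23 and 8.85 in DMSO and 35.8 and 35.1 in EV (2.18). BRCA2, which acts in homologous recombination, was 2.12 and 2.50 in DMSO and 9.71 and 9.41 in EV (1.84). FANCD2 stood at 1.65. All 4 have EV libraries more than 2-fold above the highest DMSO library, and from protein-coding transcripts they stood at 1.54 (FANCA), 2.36 (FANCL), 1.71 (BRCA2) and 1.42 (FANCD2). For FANCA the coding transcript FANCA-202 was 11.8 and 9.60 in DMSO and 32.4 and 33.7 in EV, while the retained-intron transcript FANCA-201 was 4.65 and 4.04 against 20.2 and 20.1. From protein-coding transcripts 13 of the 40 were called higher and the median was 0.65.

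Of 31 genes of end joining and break signalling, 5 were called higher (16.1%, near the 12.4% of all genes) and 0 lower, with a median of 0.45, which was 0.26 over transcripts listed in both tables. ATR, the kinase that responds to single-stranded DNA, was 7.44 and 7.93 FPKM in DMSO and 21.8 and 19.7 in EV (1.37). The ligase LIG4 (1.30), with 1.33 and 4.73 in DMSO, and the kinases ATM (1.17) and PRKDC (1.09) were called too, but LIG4 (0.42) and ATM (0.99) were not called between WT and EPZ. LIG4 was not called without DMSO replicate 1 (0.56), nor ATM without EV replicate 1 (0.97). Of 47 replication and E2F target genes, 40 were above 0 and 0 were called lower, with a median of 0.38, but the 6 called higher (12.8%) are close to the share over all genes (12.4%). POLE, the catalytic subunit of DNA polymerase epsilon, was 29.7 and 29.9 in DMSO and 93.8 and 91.9 in EV (1.62). CHAF1A (1.39), which loads histones on new DNA, CDC45 (1.30), of the replicative helicase, and POLA2 (1.24), of the primase complex, were called as well.

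Genes of G2 and mitosis had a median below 0. Of 35 members 25 were below 0, 1 was called higher and 4 lower (11.4%, against 7.91% of all genes), with a median of -0.46 (-0.26 from protein-coding transcripts). NEK2, a centrosomal kinase, was 37.8 and 44.7 FPKM in DMSO and 13.4 and 15.2 in EV (-1.49). PTTG1, the securin that holds back separase, was 175 and 154 in DMSO and 66.5 and 70.0 in EV (-1.26). CENPA, the centromeric histone, stood at -1.16 (-0.98 without DMSO replicate 2, which is not called). CENPF, a large kinetochore protein, was higher, at 26.0 and 29.8 in DMSO and 67.8 and 71.9 in EV (1.31).

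NRF2 targets, which handle oxidants and iron, had a median of -0.81 over 22 genes, with 2 called higher (9.09%, against 12.4% of all genes) and 6 lower (27.3%, against 7.91%). Groups were apart for 22 of 22, and for 82.2% of all genes. FTL, the ferritin light chain, was 1663 and 1653 FPKM in DMSO and 349 and 364 in EV (-2.22). FTH1, the ferritin heavy chain, was 1893 and 2082 in DMSO and 640 and 693 in EV (-1.58), and HMOX1, which degrades haem, stood at -1.66. FTL and FTH1 are among the more abundant RNAs of the DMSO cells. The members that were higher were AKR1C1, a ketosteroid reductase (2.12), at 0.0174 and 0.199 in DMSO and 2.23 and 1.99 in EV, and the exporter ABCC3 (1.88). AKR1C1 held as little as 13.8% of its FPKM in transcripts listed in both tables. Its close relative AKR1C3 was called lower, at 2.83 and 1.26 in DMSO and 0.334 and 0.180 in EV (-1.69), and 0% of its FPKM in 1 or more libraries lay in shared transcripts. Reads can be split among these near-identical genes, and both values are uncertain.

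Mitochondrial genes split by genome. The 13 protein genes encoded in the mitochondrial genome were all above 0, with a median of 0.70, and 5 were called higher (38.5%, against 12.4% of all genes) and 0 lower. Their genome held 17.3% and 17.6% of the summed FPKM of the DMSO libraries and 27.9% and 27.5% of the EV libraries. MT-ND1, of complex I, was 3394 and 3076 FPKM in DMSO and 7396 and 7440 in EV (1.20), and MT-ATP8, of the ATP synthase, stood at 1.34. The complex I genes MT-ND6 (1.17, and 0.97 without DMSO replicate 1) and MT-ND3 (1.13) were called as well. Of the 5 genes called, only MT-ND1 (1.10) was also called between WT and EPZ. Among the others, MT-ATP8 (0.77), MT-ND6 (0.99) and MT-ND3 (0.78) stood above 0 there without a call. MT-ATP8 overlaps the gene for its neighbour subunit, so their reads can be split. Of 75 nuclear-encoded subunits of the respiratory chain, 67 were below 0, 0 were called higher and 3 lower (4%, against 7.91% of all genes), with a median of -0.57. The genes called were NDUFA8 (-1.13) and NDUFA2 (-1.07), of complex I, and ATP5MC3 (-1.04), of the ATP synthase, and 0 of 75 were called from protein-coding transcripts alone. NDUFA2 (-0.92) and ATP5MC3 (-0.97) were not called without DMSO replicate 1. Cytosolic ribosomal protein genes were below 0 in 77 of 79 cases, with a median of -0.43. The 2 called lower, a smaller share than the 7.91% of all genes, were RPL15 (-1.03) and RPL12 (-1.02). RPL15 was not called without DMSO replicate 1 (-0.84) or EV replicate 1 (-0.98), nor RPL12 without EV replicate 1 (-0.96). The 2677 genes with the shortest transcripts had a median of -0.16. With GC and length trends removed the medians were -0.49 for the nuclear subunits and -0.37 for the ribosomal proteins, and the part of transcript length in these medians was not tested further.

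**Figure D5:**
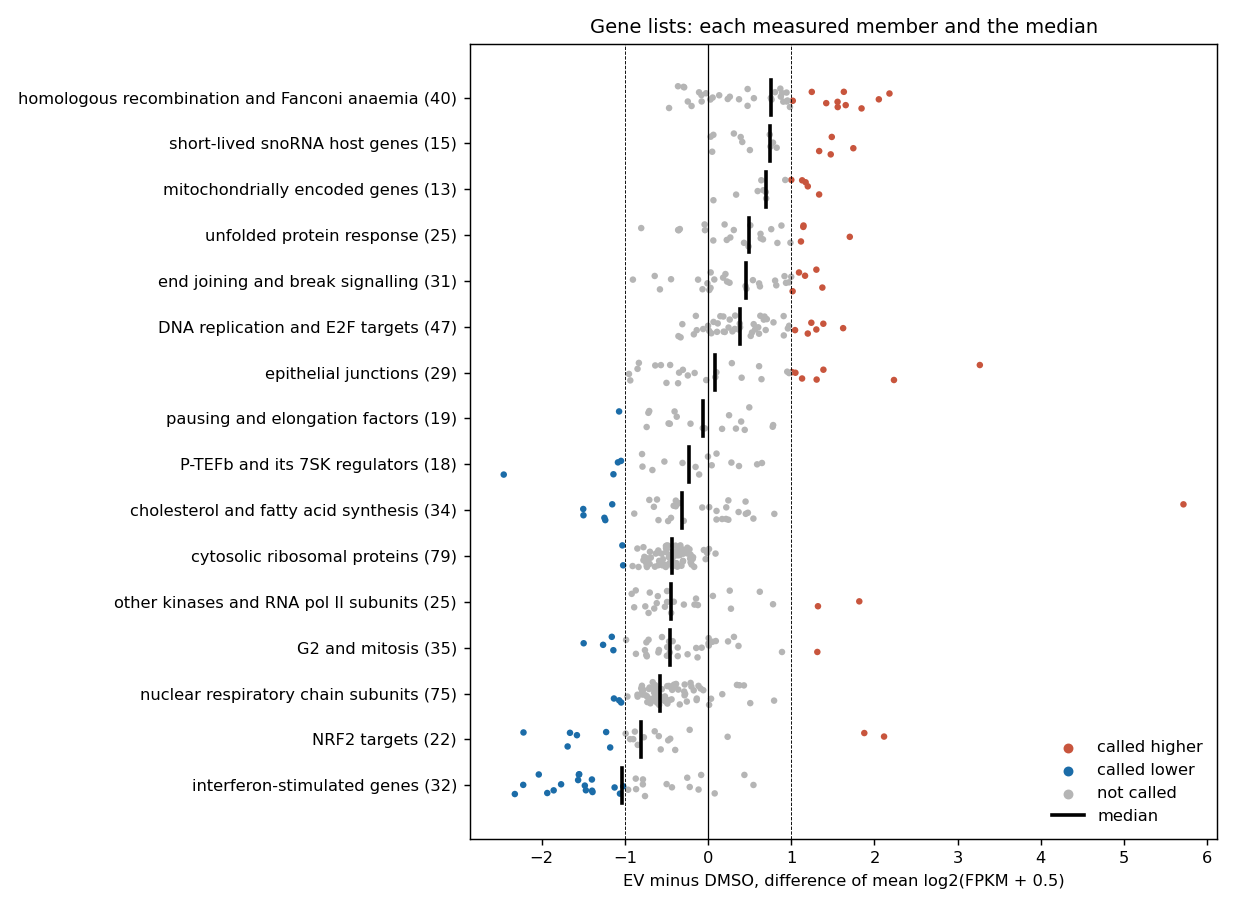
EV minus DMSO difference in mean log2(FPKM + 0.5) of each measured member of 16 gene lists (number measured in parentheses), with the median as a black bar; red and blue points are genes called higher and lower and dashed lines mark a 2-fold difference. Medians run from -1.04 for interferon-stimulated genes to 0.76 for homologous recombination and Fanconi anaemia genes, and SQLE stands alone at 5.71 in the cholesterol list.

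Other lists touch the secretory pathway and lipids. Of 25 genes of the unfolded protein response, 19 were above 0, 4 were called higher (16%, near the 12.4% of all genes) and 0 lower, with a median of 0.49. CANX, the membrane chaperone calnexin, was 179 and 184 FPKM in DMSO and 580 and 604 in EV (1.70). The oxidoreductase PDIA3 (1.14, and 0.99 without DMSO replicate 1), EDEM1 (1.15), which sends misfolded proteins to degradation, and the translocon subunit SEC61A1 (1.12) were called too. Of 34 genes of cholesterol and fatty acid synthesis, 1 was called higher and 5 lower (14.7%, against 7.91% of all genes), with a median of -0.32, which was -0.13 from protein-coding transcripts and -0.17 without DMSO replicate 1. SQLE, squalene epoxidase, was 0.201 and 0.380 in DMSO and 41.0 and 40.4 in EV (5.71). It was also at 0.218 and 0.157 in EPZ and 37.7 and 37.6 in WT. SQLE is thus nearly undetected in all 4 libraries of the inhibitor experiment, and it held 78.6% of its FPKM in transcripts listed in both tables. FDFT1, squalene synthase, the enzyme just before it, was 83.8 and 92.3 in DMSO and 30.4 and 31.2 in EV (-1.50), and ACAT2 (-1.50) and the sterol carrier STARD4 (-1.25) were lower as well.

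The label of a colorectal carcinoma line was checked against markers. The epithelial markers EPCAM (139 and 172 FPKM in DMSO, 419 and 394 in EV), KRT8 (1308 and 1174 against 634 and 669) and KRT18 (597 and 598 against 342 and 360) were high in both groups. Of the 16 colon identity genes, 3 were measured, and CDX1 and VIL1 are listed in neither table. Of 13 immune and 9 endothelial markers, 0 reached 1 FPKM in either group, and of 12 fibroblast markers 2 did, COL1A1 and ACTA2. The summed level of the immune list was 1.05 to 1.37 in DMSO and 1.48 to 1.92 in EV. In bulk RNA, fewer cells of a type and less RNA per cell cannot be told apart. Among 29 junction genes 7 were called higher (24.1%, against 12.4% of all genes) and 0 lower, among them GRHL2 (3.27), the tight junction protein CGN (2.23), EPCAM (1.39) and the claudin CLDN4 (1.31). The median of this list was 0.09, and its sign flips without rescaling (-0.03) and with GC and length trends removed (-0.06).

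WT and EPZ libraries gave the same cut between the 2 experiments in libraries that the EV and DMSO comparison does not use. There 1610 of 13581 genes (11.9%) were called higher in WT and 1052 (7.75%) lower, together 19.6%, and the groups were apart for 85.5%. Of the genes called higher in EV, 1286 were also higher in WT, which is 77.2% of the EV list and 79.9% of the WT list, and 0 were lower. Of the genes called lower in EV, 773 were lower in WT (72.5% and 73.5% of the lists) and 2 were higher. CDK9 was one of these 2, at 41.9 and 38.5 FPKM in EPZ and 3331 and 3239 in WT (6.33). Across 13366 genes the differences had r = 0.939, a description over genes whose libraries share the experiments and tables. With K56A in place of WT, 2899 of 13607 genes (21.3%) were called. Among the named genes, DOT1L (5.82), ISG15 (-2.49), FANCA (2.07), FTL (-2.35), MLLT3 (-2.25) and SQLE (5.79) kept their direction between WT and EPZ. WT cells carry the knockdown with CDK9 put back and EPZ cells had the drug, and the part of CDK9 was not tested.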

How the data were processed

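RNA-seq of 10 HCT116 libraries (2 per group) was used, with 4 libraries compared. The authors deposited FPKM per transcript in 3 tables of 4 libraries: DMSO with EPZ, EV with WT, and EV with K56A. The submitters' processing notes name Trim Galore 0.6.6, STAR 2.7.1a, RSEM 1.3.3, DESeq2 1.32.0 and build GRCh38, with no roles. No annotation release or strand setting is named, so the reads of antisense partners and overlapping genes cannot be separated. The tables also hold, per the file headers, the authors' own comparisons and 4 summary columns, which were not used. Each table lists transcripts above 0 in at least 2 of its 4 libraries.

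FPKM were summed per gene ID over all transcripts of each table (62929 for DMSO, 72555 for EV), giving 15586 and 17280 genes, 15264 in both. Genes with at least 1 FPKM in at least 2 of the 4 libraries were kept (13483), of which 13448 were found in the GENCODE list of names. EV, WT and K56A were multiplied by 1 factor, and differences were taken on log2(FPKM + 0.5). EV values in the 2 knockdown tables differ by a constant factor of 1.0007. The tables were normalized separately, so no test was made. Whether replicates came from separate cultures is not stated in the labels, and their spread may be technical.

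Gene lists, their members and the rules were chosen with earlier results of these data known. Named genes are CDK9, the P-TEFb and DOT1L list members, the 15 highest and 15 lowest called genes (mean of at least 5 FPKM in the higher group, 80% of FPKM in transcripts of both tables) and up to 4 called members with the largest differences of each list described; some of these genes are not reported here. HMOX1, IFIT1, IFIT2, IFI27, IFIH1, ISG20, FTH1, EPCAM, the keratins and all genes under other observations were picked after their values were seen, as were the 16 of 39 lists that are described. Alternatives covered scaling, pseudocount, filter, transcripts summed, source of EV, GC and length trends (13385 genes, 99.3%, had values from GENCODE 29), and each library left out. Sums over protein-coding transcripts were added after seeing the data. The scripts were tested on simulated data. Tools were Python 3.11.15, pandas 2.3.3, numpy 2.4.6, statsmodels 0.14.6 and matplotlib 3.10.9.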

Additional observations from a re-analysis of the deposited data

Results flagged for a closer look

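Genes listed in only 1 of the tables could not be compared, and some were well above 0. In the inhibitor table alone stood 322 genes, of which 10 had a DMSO mean of at least 5 FPKM. The highest were AL359922.1 (31.0 and 27.9 FPKM in the DMSO libraries), TMEM132D-AS1 (21.8 and 19.1), the dipeptidase gene DPEP1 (20.9 and 16.2) and HPGD, which inactivates prostaglandins (9.01 and 11.7). In the table of EV and WT alone stood 2016 genes, of which 20 had an EV mean of at least 5 FPKM. The highest were GPAT2 (34.0 and 36.1 FPKM in the EV libraries), HBE1, an embryonic globin (33.4 and 32.0), SLC43A3 (31.7 and 33.4), OR51B5 (26.2 and 24.5) and OR51B4 (22.6 and 21.8). HBE1, HBG2 and the OR51B genes lie within 1 stretch of chromosome 11 and overlap there, so their reads can be split among them. No fold is given for genes that stand in a single table.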

How the results depend on the processing

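No paired analysis was possible because the result comes from no test and replicate numbers of separate experiments do not pair libraries. Over 15 alternatives, 64 of the 86 named genes that were called kept their call wherever they had a value. The call was lost by KAT2A in 10 alternatives, RPL12 and RPL15 in 6, CDK9 and ATP5MC3 in 5, ELL2 and NDUFA2 in 4, PRKDC in 3 and PAF1 in 2. ATM, CENPA, HEXIM1, LIG4, MT-ATP8, MT-ND3, MT-ND6, NDUFA8, PDIA3, POLA2, SEC61A1 and STARD4 lost it in 1. Sums over protein-coding transcripts ended 12 calls and reversed that of CCNL1 (-2.05). CDK9 stood at -0.94 with equal sums outside the mitochondrial genome, -0.98 with a filter at 5 FPKM, -0.92 without DMSO replicate 1, -0.93 without EV replicate 1 and -0.76 from protein-coding transcripts. With the filter at 5 FPKM, 704 genes were called lower, from fewer genes. Replicates 2-fold apart numbered 434 (DMSO) and 124 (EV) with a pseudocount of 0.1, 127 and 38 with a pseudocount of 1, and 60 and 13 with the filter at 5 FPKM. The depth behind the FPKM values is unknown, so no counting error can be given for low values. The causes of the shifts below were not tested, except that scalings move all genes alike.

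List medians that moved by more than the spread between pairs of libraries are given next. Without rescaling they were -0.34 (P-TEFb), -0.56 (other kinases and polymerase subunits), -0.92 (NRF2), 0.64 (recombination), 0.33 (end joining), 0.27 (replication), -0.58 (mitosis), 0.58 (mitochondrial genome), -0.70 (nuclear respiratory subunits), -0.55 (ribosomal proteins), 0.37 (unfolded protein response), -0.44 (cholesterol) and, with a changed sign, -0.033 (junctions). With equal sums outside the mitochondrial genome they were -0.12 (P-TEFb), -0.33 (other kinases and polymerase subunits), -0.70 (NRF2), 0.86 (recombination), 0.56 (end joining), 0.48 (replication), -0.35 (mitosis), 0.81 (mitochondrial genome), -0.46 (nuclear respiratory subunits), -0.32 (ribosomal proteins), 0.60 (unfolded protein response), -0.21 (cholesterol), 0.20 (junctions) and, with a changed sign, 0.044 (pausing). With the filter at 5 FPKM they were 0.82 (recombination), 0.52 (end joining), 0.76 (mitochondrial genome), -0.51 (nuclear respiratory subunits), -0.37 (ribosomal proteins), 0.55 (unfolded protein response) and 0.16 (junctions). With no filter they were -0.91 (interferon), 0.31 (end joining), 0.66 (mitochondrial genome), -0.62 (nuclear respiratory subunits), -0.47 (ribosomal proteins) and 0.44 (unfolded protein response). Over transcripts listed in both tables they were 0.59 (recombination), 0.26 (end joining), 0.73 (mitochondrial genome), 0.52 (unfolded protein response) and 0.011 (junctions). From protein-coding transcripts they were -0.32 (other kinases and polymerase subunits), -0.90 (interferon), 0.65 (recombination), 0.47 (replication), -0.26 (mitosis), 0.89 (mitochondrial genome), -0.43 (nuclear respiratory subunits), -0.32 (ribosomal proteins), 0.15 (snoRNA hosts, 1 gene), 0.65 (unfolded protein response) and -0.13 (cholesterol). With GC and length trends removed they were -0.34 (P-TEFb), 0.67 (recombination), 0.33 (end joining), 0.80 (mitochondrial genome), -0.49 (nuclear respiratory subunits), -0.37 (ribosomal proteins), 0.43 (unfolded protein response) and, with a changed sign, -0.061 (junctions). With each library left out in turn, medians ran from -1.17 to -0.93 (interferon), -0.82 to -0.71 (NRF2), 0.66 to 0.77 (recombination), 0.69 to 0.72 (mitochondrial genome), -0.55 to -0.50 (nuclear respiratory subunits), -0.48 to -0.39 (ribosomal proteins), 0.46 to 0.75 (snoRNA hosts), 0.46 to 0.54 (unfolded protein response), -0.32 to -0.17 (cholesterol), -0.33 to -0.17 (P-TEFb), 0.37 to 0.46 (end joining), 0.34 to 0.53 (replication), -0.46 to -0.38 (other kinases and polymerase subunits) and -0.23 to 0.028 (pausing).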

Other observations

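Lists not described above also held genes far from 0, all picked here after their values were seen. Of 7 measured keratins 3 were called higher, against 12.4% of all genes. KRT23 was 0.124 and 0.429 FPKM in DMSO and 13.6 and 14.8 in EV (4.27). KRT7, a keratin of simple ductal epithelia, was 2.42 and 1.01 against 22.7 and 20.5 (3.39). KRT23 held as little as 32.0% and KRT7 62.3% of their FPKM in transcripts listed in both tables. KRT15 stood at 1.17 but was not called between WT and EPZ (0.99). KRT8 (-0.93), KRT18 (-0.77) and KRT19 (-0.58) stood lower without a call. All 3 measured colon identity genes were called lower, against 7.91% of all genes. Of these, the colon transcription factors CDX2 (6.88 and 8.50 in DMSO, 2.46 and 2.92 in EV) and HNF4A (-1.42) are named here. TUBB3, a beta tubulin, was 338 and 270 in DMSO and 70.6 and 69.8 in EV (-2.10), beside the lower TUBA1A. The membrane protease MMP14 (3.10) and the receptor kinase AXL (2.59) were higher. MMP14 held as little as 41.1% and HNF4A 62.2% of their FPKM in transcripts listed in both tables.

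Some HOX genes called in either direction are named here. Members without a call are not listed, so the clusters are not compared. HOXB3 (5.77 and 3.98 FPKM in DMSO, 24.1 and 25.8 in EV, 2.26), HOXB5 (1.64), HOXB6 (1.33) and HOXB4 (1.13) were higher. HOXA4 (-1.18) and HOXA13 (-1.11) were lower, as was the HOX cofactor PBX3 (-1.45). Of 28 measured immediate early genes, 4 were called higher (14.3%, near the 12.4% of all genes) and 1 lower (3.57%, against 7.91%). Their median was 0.07, and 12 were below 0. Among them FOS was 169 and 166 in DMSO and 471 and 471 in EV (1.49) and FOSB stood at 1.45. NEAT1, the long RNA of paraspeckles, was 113 and 140 in DMSO and 474 and 487 in EV (1.93). Of 14 measured genes of the BCL2 family, 3 were called lower (21.4%, against 7.91% of all genes) and 0 higher. These were BAK1 (-1.20), BAD (-1.19) and BOK (-1.15), while BCL2L2 stood at 0.96 and the short-lived MCL1 at -0.26. BAD (-0.83) and BOK (-0.84) were not called between WT and EPZ, nor BOK from protein-coding transcripts (-0.97).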
